A study of Arabidopsis thaliana with 2 samples.

Results

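The berberine bridge enzyme-like (BBE-like) genes of *Arabidopsis thaliana* described here are members of 2 tandem groups. These are the AT4G208 group on chromosome 4 and the AT5G44 group on chromosome 5. Members were the loci of a fixed list of 10, and a locus was measured if the platform annotation tied a probe to it alone. By this rule 9 of the 10 loci had a value, each from 1 probe, among 9253 genes so measured in the series. AT4G20820, on chromosome 4, was the 1 locus without such a probe and was not analysed here. The list was drawn up with values of the same comparison already known, AT5G44380 having been seen among the highest genes, so the members' values are given as a description with no test.

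Rosette leaves of 2 T1 plants, independent transformants that carried NST1 under the 35S promoter, were compared with those of wild type on 2 arrays of 2 colours. All plants were 2 weeks old and grew untreated under 16 h of light and 8 h of dark. The NST1 over-expressors, no. 36 and no. 44 (plant 36 and plant 44), were in Cy5 on 1 array each, and wild type was in Cy3 on both. The 35S promoter is active in most plant tissues, whereas NST1 is the NAC family regulator that starts the deposition of thick secondary walls in particular cells. As T1 plants, each over-expressor was the single plant of its own transformation event. The labels do not say how many wild-type plants were used or whether both arrays carried the same wild-type RNA, so wild type counted as 1 control sample and its own spread is left out.

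Each value is the deposited log ratio of a probe on 1 array, read as log10 of over-expressor over wild type. No source used here states the base, the centring or the direction of the ratio. Folds hold only if the base is 10, and the direction is likely, from the dyes and the order of names in the sample titles. With 0 arrays dye-swapped, a dye effect on a gene and the genotype cannot be told apart. NST1 had no named probe, so over-expression itself could not be checked. A ratio holds no level, so the leaf could not be checked against the level of its markers. Of the 12 leaf markers listed, 4 were measured, and LHCB4.3, a light-harvesting antenna gene, fell to -0.23 ± 0.01 (SD, n = 2 plants, limma adjusted p = 0.0286). The other 3, PSBW, RCA and LHCB4.1, did not pass. They held the identical pair of -0.22 in plant 36 and -0.082 in plant 44, so they may not be 3 independent measurements. Why the pair is shared was not tested. All 3 measured root markers lay below 0 on both arrays and did not pass, the 5 secondary wall xylem markers were not measured, and the phloem sugar transporter SWEET11 rose to 0.32 in both plants (adjusted p = 0.0233). Whether a change in cell types has a part in the BBE-like values was not tested, and more cells of a type cannot be told apart from more RNA per cell.

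BBE-like proteins are secreted flavin enzymes that carry FAD and oxidise a substrate, and those that pass electrons to oxygen release hydrogen peroxide. In *Arabidopsis* several of them oxidise oligosaccharides freed from the cell wall, and the oxidised fragments are weaker signals of damage. Others oxidise the alcohols from which lignin is made, or intermediates of indole defence compounds. Genes of the family lie in tandem groups, and several members are known to be induced by pathogens.

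The members' values ranged from well above 0 to below it. AT5G44380 lay far above the rest. Next came 3 genes with means between 0.41 and 0.45, which are AT4G20860, AT5G44390 and AT5G44360. AT4G20830 followed at 0.25. The other 4, AT5G44410, AT4G20840, AT5G44440 and AT5G44400, had means between -0.15 and 0.01. Of the 9 probes, 4 lay at or beyond 2-fold higher (0.30 on the log10 scale) on both arrays and 0 at or beyond 2-fold lower. The backgrounds are 2.71% and 2.44% of the 9335 probes with 1 gene, and nothing is read from the comparison because the members were chosen on this contrast. Above 0 on both arrays lay 5 of the 9, beside 42.2% of all probes with 1 gene, and below 0 on both lay 2, beside 41%. If the direction of the ratio is turned, these counts and shares change places, as do those at 2-fold. The median of the 9 was 0.25, against 0.00 over all probes with 1 gene.

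**Figure D1:**
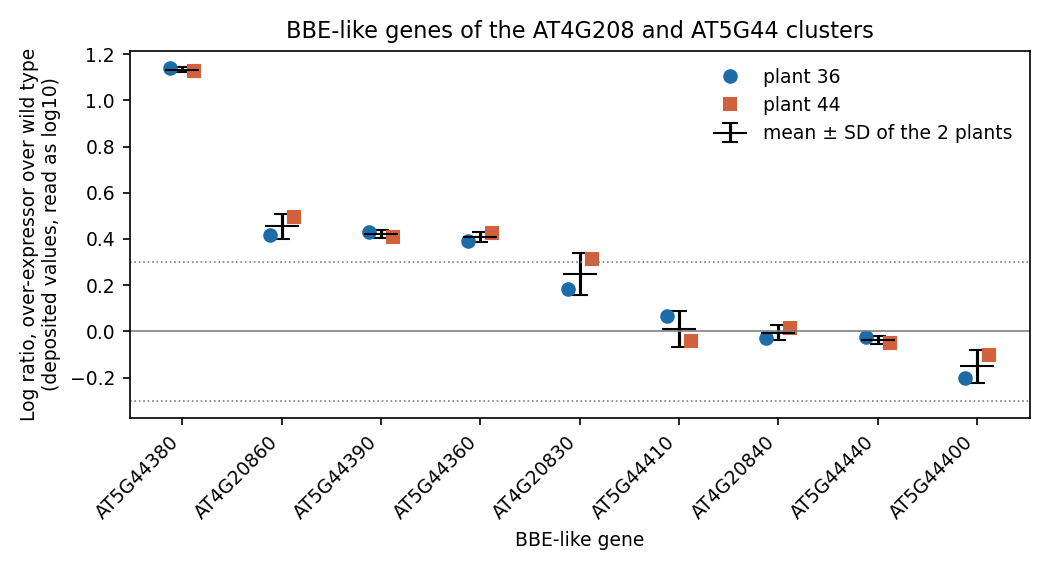
Deposited log ratio (read as log10) of over-expressor over wild type for each of the 9 measured BBE-like genes, ordered by mean. Circles are plant 36, squares are plant 44, bars are the mean ± SD of the 2 plants and dotted lines mark 2-fold. AT5G44380 stands at 1.13, and 4 of the 9 genes lie above the upper dotted line in both plants.

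The chromosome 4 group holds the members with the best known substrates. AT4G20830 (OGOX1) and AT4G20840 (OGOX2) encode oxidases of oligogalacturonides, the pectin fragments that act as damage signals. AT4G20830 had log ratios of 0.18 in plant 36 and 0.31 in plant 44, which are 1.53-fold and 2.06-fold. It was above wild type in both plants and reached 2-fold in plant 44 only. Its mean was 0.25 ± 0.09 (SD, n = 2 plants), or 1.77-fold, and it was the member with the largest difference between the plants, 0.13.

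AT4G20840 had -0.03 in plant 36 and 0.02 in plant 44. The plants lay on opposite sides of 0, and the mean of -0.01 ± 0.03 (SD, n = 2) was smaller than their spread. The difference in log ratio between the 2 oligogalacturonide oxidase genes, AT4G20830 minus AT4G20840, was 0.21 in plant 36 and 0.30 in plant 44.

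AT4G20860 encodes the cellodextrin oxidase CELLOX, which acts on short cellulose fragments. Its log ratio was 0.42 in plant 36 and 0.49 in plant 44, or 2.60-fold and 3.11-fold. Both plants exceeded 2-fold, and the mean was 0.45 ± 0.06 (SD, n = 2), or 2.84-fold. Of the chromosome 4 members it was the highest in each plant. AT4G20830, AT4G20840 and AT4G20860 were each higher in plant 44 than in plant 36, by 0.05 to 0.13.

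On chromosome 5, AT5G44380 had log ratios of 1.14 in plant 36 and 1.13 in plant 44, or 13.8-fold and 13.4-fold. The plants differed by 0.01, and the mean of 1.13 ± 0.01 (SD, n = 2) is 13.6-fold. Among the 9335 probes with 1 gene it ranked 4 in plant 36, 13 in plant 44 and 3 by the mean, counted from the highest, or from the lowest if the direction of the ratio is turned. Its substrate is not stated here.

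The nearest members on each side of AT5G44380 were higher than wild type as well, by less. AT5G44390 had 0.43 in plant 36 and 0.41 in plant 44, with a mean of 0.42 ± 0.02 (SD, n = 2), or 2.63-fold. AT5G44360 had 0.39 in plant 36 and 0.43 in plant 44, with a mean of 0.41 ± 0.02 (SD, n = 2), or 2.56-fold. All 4 of these values exceeded 2-fold. In log ratio, AT5G44380 minus AT5G44390 was 0.71 in plant 36 and 0.72 in plant 44, and AT5G44360 minus AT5G44380 was -0.75 in plant 36 and -0.70 in plant 44.

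The remaining 3 members of chromosome 5 lay near or below 0. AT5G44400 had -0.20 in plant 36 and -0.10 in plant 44, and its mean of -0.15 ± 0.07 (SD, n = 2), or 1.42-fold lower, was the lowest of the 9. AT5G44410 had 0.07 in plant 36 and -0.04 in plant 44, on opposite sides of 0, with a mean of 0.01 ± 0.08 (SD, n = 2). AT5G44440 (AtBBE28), a member whose structure has been solved, had -0.02 in plant 36 and -0.05 in plant 44, with a mean of -0.04 ± 0.02 (SD, n = 2). The step between the adjacent genes AT5G44390 and AT5G44400 was 0.63 in plant 36 and 0.51 in plant 44, so that the higher and the lower members of the AT5G44 group were neighbours.

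The medians of the 2 groups were 0.21 over 6 genes of chromosome 5 and 0.25 over 3 genes of chromosome 4. The spread among members was larger on chromosome 5, from -0.15 to 1.13, than on chromosome 4, from -0.01 to 0.45. The chromosome 5 range covers more genes, and its upper end is AT5G44380 alone, with the next member, AT5G44390, at 0.42. The groups were not tested against each other, since genes are not replicates. The plants differed by a median of 0.05 in absolute log ratio over the 9 members, beside 0.04 over all probes with 1 gene, and the 4 genes with the highest means differed by 0.01 to 0.08. Tandem copies can be alike enough to bind one another's probes, which was not tested because probe sequences were not used here.

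The order of genes along the chromosomes was taken from the RefSeq table of assembly TAIR10.1. From the first to the last member, the AT4G208 group spans 6 coding genes, of which 4 are members, and the AT5G44 group spans 9, of which 6 are members. Each span held 1 measured gene that is no member. In the AT4G208 group, TPP2 (AT4G20850), a tripeptidyl peptidase, lies between AT4G20840 and AT4G20860. TPP2 had 0.08 in plant 36 and 0.11 in plant 44 and did not pass (limma adjusted p = 0.0694). In the AT5G44 group, the plant defensin gene PDF1.2 (AT5G44420), a marker of the jasmonate and ethylene response, lies between AT5G44410 and AT5G44440. PDF1.2 had 1.11 in plant 36 and 1.07 in plant 44 and rose to 1.09 ± 0.03 (SD, n = 2, limma adjusted p = 0.0168), while the nearest members on each side had means of 0.01 and -0.04. Its near copies PDF1.2c (AT5G44430) and AT2G26020, the latter on another chromosome, were not analysed here, and the probe may report them too.

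**Figure D2:**
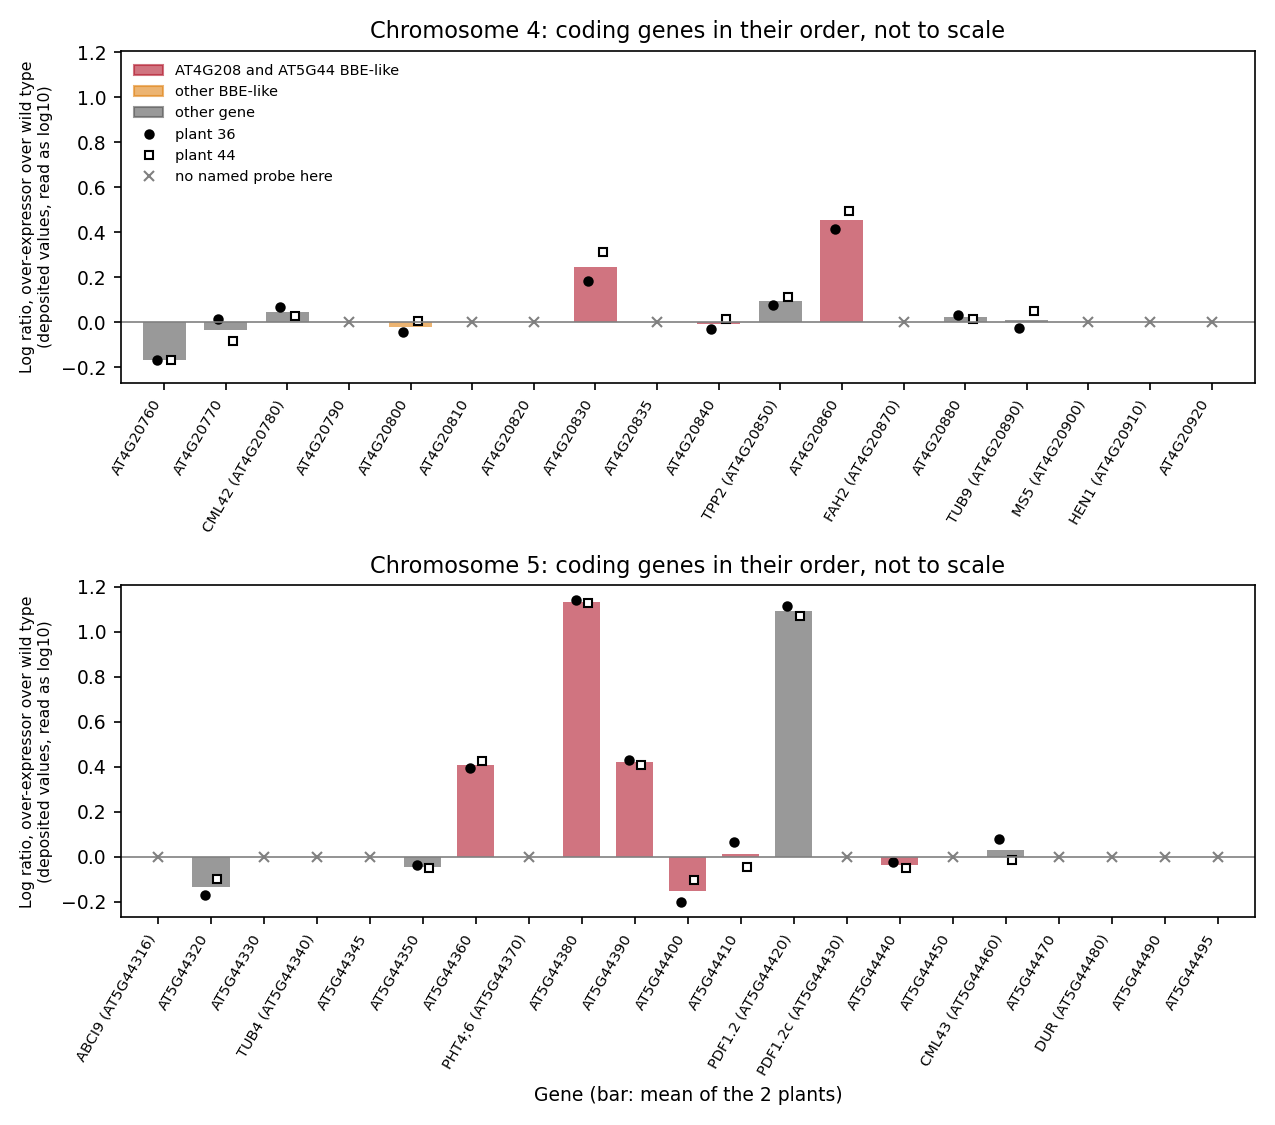
Coding genes in chromosomal order around the AT4G208 group (top) and the AT5G44 group (bottom), with 6 genes on each side, not to scale. Bars are the mean deposited log ratio (read as log10) of over-expressor over wild type, circles plant 36, squares plant 44, and crosses genes with no named probe here. The members AT5G44360, AT5G44380 and AT5G44390 follow one another with PHT4;6, which has no named probe here, between the first pair, and PDF1.2 stands at 1.09 between members near 0.

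Genes that start within 50 kb of either group were compared as neighbours, 64 coding genes without the members, of which 23 were measured. Of these, 2 rose and 4 fell, beside 9.99% of the probes with 1 gene that rose and 12.4% that fell. Their median was 0.00, against 0.00 over all probes with 1 gene. After PDF1.2 the largest changes were falls. VPS2.2 (AT5G44560), of the ESCRT-III membrane machinery, fell to -0.28 ± 0.03 (SD, n = 2, adjusted p = 0.0314), AT5G44500 fell to -0.23 ± 0.04 (adjusted p = 0.0386) and PyrD (AT4G20960), of riboflavin synthesis, fell to -0.21 ± 0.01 (adjusted p = 0.0307). PDF1.2 was the single one of the 23 at or beyond 2-fold on both arrays.

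By distance between pairs of array values, the gene most like AT5G44380 was PDF1.2, at 0.063 over the 2 arrays. AT2G17740 followed at 0.066, with 1.19 in plant 36 and 1.08 in plant 44. AT5G38900 came next at 0.115, with 1.05 in plant 36 and 1.06 in plant 44. With 2 arrays, this likeness says only that the genes had similar ratios.

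Of the BBE-like genes outside the member list, 13 of 17 listed were measured. Among them 5 rose, 8 missed the threshold and 0 fell, beside 9.99% of the probes with 1 gene that rose and 12.4% that fell. Their median was 0.27, beside 0.25 for the AT4G208 and AT5G44 members and 0.00 over all probes with 1 gene. At or beyond 2-fold higher on both arrays lay 6 of the 13, and 10 of all 22 measured genes of the family, beside 2.71% of the probes with 1 gene. At or beyond 2-fold lower lay 0 of the 22, beside 2.44%. The 13 genes were listed with earlier values of some of them known, and the counts of 22 take in the members, which were chosen on this contrast. All these counts are therefore a description, and nothing is read from setting them beside the shares.

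The highest gene of the family was AT1G26390, with 1.03 in plant 36 and 1.32 in plant 44. Its mean of 1.17 ± 0.20 (SD, n = 2, adjusted p = 0.0331) lay within its own SD of the 1.13 of AT5G44380. AT1G26420 rose to 0.73 ± 0.06 (adjusted p = 0.0233), AT1G30720 to 0.52 ± 0.09 (adjusted p = 0.0339) and AT1G30730 to 0.47 ± 0.04 (adjusted p = 0.0254). They and AT1G26390 were named for their large means, from genes listed with some values known. The p-values in this paragraph are therefore a description too. The other genes named in this paragraph were picked out after their values were seen. AT1G26380 (FOX1), an oxidase of indole cyanogenic defence metabolism, rose to 0.36 ± 0.03 (adjusted p = 0.0272). AT1G30700 had 0.54 in plant 36 and 1.12 in plant 44 and was beyond 2-fold in both without passing the test (adjusted p = 0.093). AT1G11770, a further oligogalacturonide oxidase gene (OGOX3), had -0.02 in plant 36 and 0.04 in plant 44, close to AT4G20840, and did not pass (adjusted p = 0.837). AT4G20800, which lies near the first member of the AT4G208 group, had -0.04 in plant 36 and 0.01 in plant 44 (adjusted p = 0.549). By its number and place it could be counted in that group, but the fixed list leaves it out. It stands among the neighbours too, and the chromosome 4 median does not include it. AT1G30760, whose product oxidises monolignols, had -0.11 in plant 36 and -0.08 in plant 44 (adjusted p = 0.0707).

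**Figure D3:**
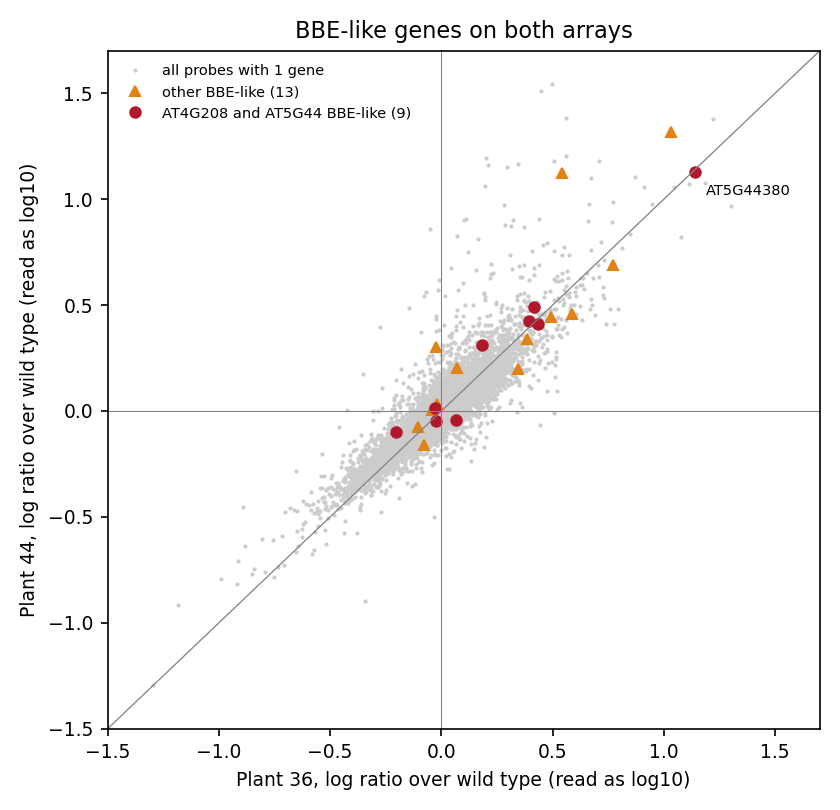
Deposited log ratio (read as log10) of plant 44 against plant 36, each over wild type, for the 9335 probes with 1 gene (grey dots), the 9 AT4G208 and AT5G44 BBE-like genes (circles) and the 13 other BBE-like genes (triangles). The diagonal marks equal values in both plants. AT5G44380 lies on the diagonal at 1.13, and the other 8 members lie below 0.5 in both plants.

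Genes of processes related to the reactions of BBE-like enzymes, wherever in the cell their products act, were counted from lists of loci. Like the members, these lists were chosen with earlier results of these data known. In the list of riboflavin and FAD synthesis, which supplies the flavin of these enzymes, 4 of 10 genes were measured, with a median of -0.18. Among them 2 fell, 2 missed the threshold and 0 rose, beside 12.4% of the probes with 1 gene that fell and 9.99% that rose. All 4 lay below 0 on both arrays, beside 41% of those probes. Besides PyrD, COS1 (AT2G44050), the lumazine synthase, had -0.18 in both plants and fell to -0.18 (SD 0.004, n = 2, adjusted p = 0.032).

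In the list of sources and scavengers of hydrogen peroxide, no source was measured. The 2 of 10 genes that were measured both encode ascorbate peroxidases, which remove it, and their median was -0.12. Among them 1 fell, 1 missed the threshold and 0 rose, beside 12.4% of the probes with 1 gene that fell and 9.99% that rose. The gene that fell was the thylakoid ascorbate peroxidase TAPX (AT1G77490), at -0.19 in plant 36 and -0.17 in plant 44 (mean -0.18 ± 0.02, adjusted p = 0.035). In the list of pectin breakdown and oligogalacturonide perception, 2 of 16 genes were measured, with a median of -0.03. Neither passed, beside the same shares over all probes with 1 gene. AT1G48100, a polygalacturonase gene, had -0.10 in plant 36 and -0.09 in plant 44 (adjusted p = 0.057), and ADPG1 (AT3G57510), also a polygalacturonase, had -0.01 in plant 36 and 0.10 in plant 44 (adjusted p = 0.46). None of the 8 genes listed for camalexin and 4-hydroxyindole-3-carbonyl nitrile was analysed here, for want of a named probe.

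In the list of monolignol oxidation, the step that feeds lignin, the 7 measured genes of 11 were all class III peroxidases. Among them 4 rose, 2 fell and 1 missed the threshold, beside 9.99% of the probes with 1 gene that rose and 12.4% that fell. The median of the gene means was 0.44, against medians of 0.27 in plant 36 alone and 0.41 in plant 44 alone. It is the mean of AT4G33420, named here because it sets the median, which had 0.23 in plant 36 and 0.65 in plant 44 and did not pass (adjusted p = 0.139). PRX52 (AT5G05340) had 1.22 in plant 36 and 1.38 in plant 44 (mean 1.30 ± 0.11, adjusted p = 0.0233), the highest mean of the list, and AT2G37130 had 0.57 and 0.55 in the same order of plants (adjusted p = 0.0171). AT5G64120 rose to 0.47 ± 0.08 (adjusted p = 0.0349) and AT2G41480 to 0.28 ± 0.01 (adjusted p = 0.0273). The 2 that fell, picked out later, were AT1G71695, to -0.25 ± 0.02 (adjusted p = 0.0286), and AT5G66390, to -0.215 ± 0.02 (adjusted p = 0.0329). The lists were not tested as sets, and their medians are set beside that over all probes with 1 gene, 0.00.

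**Figure D4:**
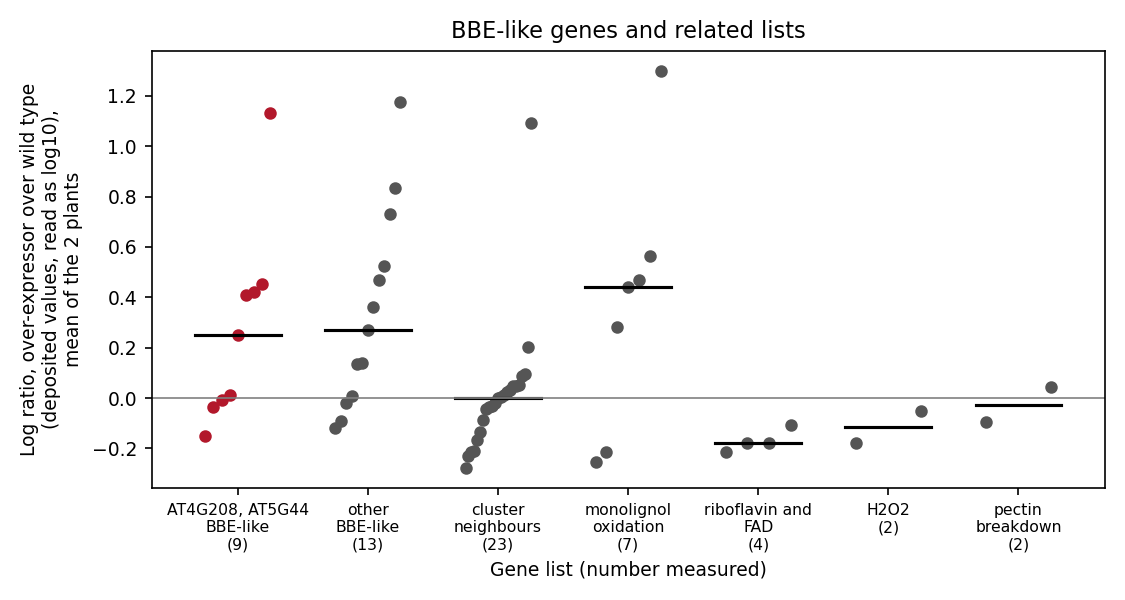
Mean deposited log ratio (read as log10) of over-expressor over wild type for each measured gene of the AT4G208 and AT5G44 BBE-like genes (first column) and of 6 lists, with the number of genes in brackets and black lines at the medians. The medians are 0.25 and 0.27 for the BBE-like columns, 0.44 for monolignol oxidation (0.27 in plant 36 and 0.41 in plant 44) and -0.18 for riboflavin and FAD synthesis.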

How the data were processed

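The authors' deposited values were 1 log10 ratio per probe and array, as read here from values held within -2 and 2. Beyond the dyes and the RNA in each channel, which the labels give, no source used here says how the authors made them. They were used without further centring. The medians over all 22575 probes were -0.002 for plant 36 and -0.004 for plant 44. Precision is limited by the number of arrays, and signal over background is unknown, since scanner intensities were not used here.

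Probes were named through the platform annotation and the gene identifiers of the RefSeq table (TAIR10.1). Of the probes, 9335 had 1 gene, of which 9317 matched RefSeq, 40 had several and 13200 were unnamed here. All probes were fitted with limma 3.58.1 in R 4.3.3 (intercept only, empirical Bayes, 1 residual degree of freedom, prior of 1.37), two-sided against 0, with Benjamini-Hochberg adjustment over all probes called at 0.05. Only probes so called are said to have risen or fallen. The p-values rest on how far the 2 over-expressors differ from each other at a probe, pooled through the prior with that spread over all probes. Errors are the SD of the plants.

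The members and lists were chosen with earlier results of these data known. The rule for named genes took all members, up to 4 genes of each list and of the neighbours with the largest absolute mean among those past the threshold (the 2 largest where none passed), and the 3 genes nearest to the highest member. Markers, TPP2 and the genes said to be picked later stand outside it. Alternatives were centring, scaling, leaving out probes at 0, no prior, an adjusted p of 0.01, a fit on named probes, other folds, a log2 reading and each plant alone. Protein and promoter features were planned and are not analysed here.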

Additional observations from a re-analysis of the deposited data

How the results depend on the processing

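The 4 members at or beyond 2-fold higher on both arrays numbered 4 with centring and with centring and scaling, 5 at 1.5-fold, 1 at 3-fold, 1 if the values are log2, and 4 to 5 on single arrays. None lay at or beyond the limit on the lower side in any of these. The median of the members was 0.184 to 0.313 on single arrays, as was that of the chromosome 4 group, and that of the chromosome 5 group was 0.1825 to 0.23. AT4G20840 and AT5G44410 changed sign between the plants. Among probes with 1 gene, 700 lay higher and 797 lower at 1.5-fold, 80 and 34 at 3-fold, and 6 and 1 if the values are log2, with 367 to 416 higher and 262 to 392 lower on single arrays. Lower values thus outnumbered higher ones at 1.5-fold and in plant 36, unlike at 2-fold on both arrays (253 higher, 228 lower).

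The calls depended on the fit. With no prior or at an adjusted p of 0.01, limma called 0 in every count, over all probes and in every list, although 4329 probes with no prior and 9718 with it had an unadjusted p under 0.05. Over all probes, 2001 rose and 2795 fell. With centring 3021 rose and 3393 fell, with scaling 3187 rose and 3493 fell. Without probes at 0, 3012 rose and 3526 fell. With 1 gene, 933 rose and 1156 fell. The rises were 1431, 1419 and 1517 with centring, without probes at 0 and with scaling, and 1609 in the fit on named probes. The falls, in the same order, were 1441, 1497, 1485 and 1620. Scaling left more rises than falls (1517 against 1485), unlike the 933 and 1156 as reported. The other BBE-like genes had 5 to 7 calls, all rises, with centring, with scaling, without probes at 0 and in the fit on named probes. Calls in riboflavin and FAD synthesis, 2 as reported and all falls, were 3 with centring and 4 with scaling, without probes at 0 and in the fit on named probes. In pectin breakdown there was 1 call without probes at 0 and 1 in the fit on named probes, and the neighbours, with 6 calls as reported, had 9 in that last fit. For all of these, the cause was not tested. No paired analysis was possible because there is 1 group. Calls without 1 plant were not run, since no residual degrees of freedom are left.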
